A study of Mus musculus with 2 samples.

Results

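The proteasome genes of mouse mammary gland were compared between the day of forced weaning (day 0 of involution) and the following day (day 1). They were taken as all probe sets with a single platform symbol that begins with Psma, Psmb, Psmc, Psmd, Psme, Psmf or Psmg and a digit. This rule found 103 of 45101 probe sets, which stand for 49 of 18193 named genes. Psmc3ip and Psme3ip1 carry such a symbol but encode proteins that bind a subunit, so 47 genes with a proteasome role remained, on 100 probe sets. Both groups were CD1 females bought at 6 weeks of age, mated, and given litters adjusted to 6 pups. Pups were removed at day 10 of lactation, and whole glands were taken on that day (day 0) or the day after (day 1), so no group of continued suckling or of unmated mice was part of this comparison. Each day is 1 Affymetrix whole-genome mouse array of RNA from 5 pooled animals, and is thus 1 measurement: the spread between mice cannot be seen, no test is possible, and every difference below lies between 2 arrays without a replicate check.

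The proteasome is the protease of cytosol and nucleus that degrades proteins tagged with ubiquitin. Its barrel-shaped 20S core has outer rings of alpha subunits, which gate the entrance, and inner rings of beta subunits, of which Psmb5, Psmb6 and Psmb7 carry the cutting sites. A 19S regulatory particle caps the barrel: its base holds the ring of ATPases (Psmc genes) that unfolds substrates, and its lid removes ubiquitin. In the immunoproteasome, which interferon induces and which is abundant in leukocytes, Psmb8, Psmb9 and Psmb10 take the places of the cutting subunits. The involuting gland removes most of its secretory epithelium within days of weaning.

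Nearly all parts of the constitutive proteasome had a higher signal on day 1. The values are MAS 5 signals, the summary brightness of a probe set on a linear scale. Signals under 77.7, the median over both arrays, were set to that floor, and a gene was called measured if its brighter array lay above it. Each gene is given by its brightest probe set. Of the 47 proteasome genes 46 were measured, 45 of them above the floor on both arrays, and their median log2 ratio of day 1 over day 0 was 0.51, against -0.12 over the 13239 measured genes. At least 2-fold higher signals were seen in 12 of 46, where 10.4% of all measured genes were that much higher, and 0 of 46 were at least 2-fold lower, against 13.3%. A 1.5-fold higher signal was reached by 19 of 46, against 20.4%, and a 1.5-fold lower one by 1 of 46 (Psmb11), against 27.2%. Psmb11 could not be counted as 2-fold lower here, since its day 1 signal was set to the floor. At both thresholds the share of higher genes was above the background and that of lower genes far below it. When all measured probe sets of a gene were averaged, 6 of the 46 were at least 2-fold higher, against 7.9% of all genes. Of these, Psmd8, Psmd14, Psmd1, Psmc1 and Psmd10 had 1 measured probe set each, so averaging could not change them. Among the 2-fold higher genes with several measured probe sets, only Psma5 stayed.

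Of the 12 genes at least 2-fold higher, 11 encode subunits of the constitutive 26S particle, core plus cap. The 31 measured subunits of the alpha ring, the constitutive beta ring, the base and the lid had a median log2 ratio of 0.87, with an interquartile range of 0.47 to 1.24. All 31 had a ratio above 0, as did 43.3% of all measured genes and 51.1% of the genes above the floor on both arrays. At least 2-fold higher were 11 of 31, against 10.4% of all measured genes. The lowest of them, Psmc5, lay at percentile 58.2 of all measured genes and the highest, Psmd8, at percentile 96.3; 25 of 31 lay above the 75th percentile. After quantile normalization and after loess, 29 of 31 were above 0, the exceptions being Psmb2 and Psmc5, where 49.1% and 49.8% of all measured genes were. With probe sets averaged 28 of 31 were above 0, without Psma3, Psmb1 and Psmd13, against 40.7% of all measured genes. The median log2 ratio of the 31 was then 0.51.

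**Figure D1:**
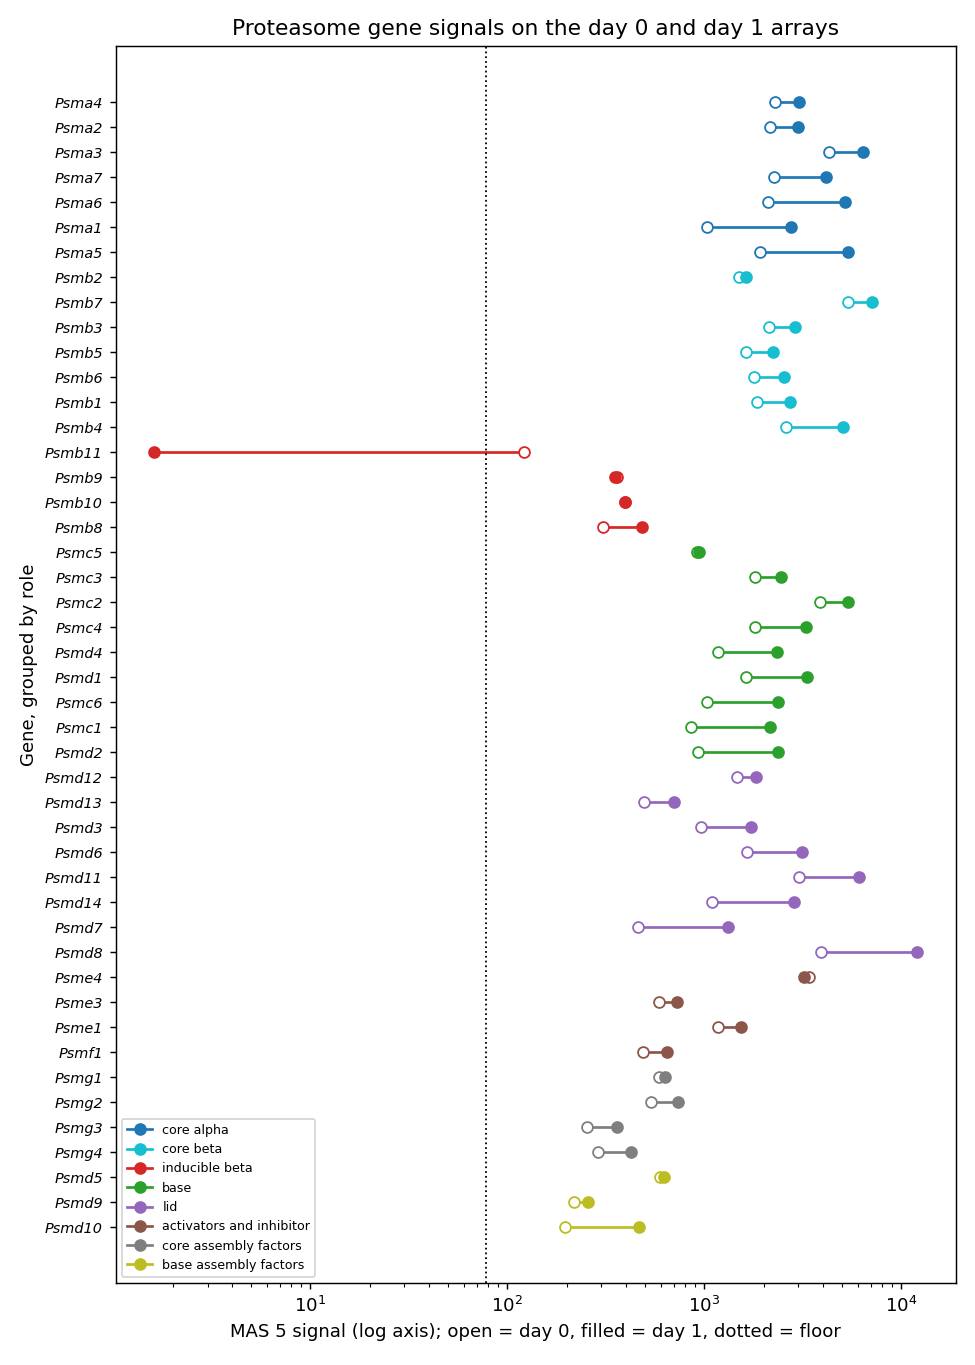
MAS 5 signal (log axis) of the 46 measured proteasome genes on the day 0 array (open circles) and the day 1 array (filled circles), 1 array per day, grouped by role; the dotted line is the floor of 77.7. The filled circles of the alpha, base and lid genes lie to the right of the open ones, while those of Psmb9 and Psmb10 nearly coincide; Psmb11 is below the floor on day 1.

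Promoter sequences of 4 genes of the core are shown as examples with unlike ratios: Psma1 was among the core subunits with the largest ratios (log2 ratio 1.43), Psmb5 was moderately higher (0.46), and Psmb8 and Psmb9 are inducible subunits (0.65 and -0.05). Each run gives the 130 bases before the transcription start, 5′ to 3′, from RefSeq on GRCm38.p6, and no RefSeq gene overlaps them. Capitals mark matches to 4 short motifs, searched on both strands in the 250 bases before the start: TGACNNNGC, the core of the antioxidant response element that the transcription factor Nfe2l1 binds; TTCNNNGAA, the site type of Stat factors, which reads the same on both strands; GAAA, any 2 bases and GAAA again, the interferon-stimulated response element; and CCAAT.
Psma1 (chr7:114276117-114276246, minus strand): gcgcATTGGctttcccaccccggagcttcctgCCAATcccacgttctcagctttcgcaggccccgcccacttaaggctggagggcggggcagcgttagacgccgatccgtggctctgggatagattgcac
Psmb5 (chr14:54617996-54618125, minus strand): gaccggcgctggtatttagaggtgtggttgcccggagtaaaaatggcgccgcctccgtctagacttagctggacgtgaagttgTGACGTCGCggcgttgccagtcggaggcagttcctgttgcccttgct
Psmb8 (chr17:34198065-34198194, plus strand): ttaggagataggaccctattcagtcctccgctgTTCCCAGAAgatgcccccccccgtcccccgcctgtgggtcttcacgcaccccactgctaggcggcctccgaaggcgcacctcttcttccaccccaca
Psmb9 (chr17:34187331-34187460, minus strand): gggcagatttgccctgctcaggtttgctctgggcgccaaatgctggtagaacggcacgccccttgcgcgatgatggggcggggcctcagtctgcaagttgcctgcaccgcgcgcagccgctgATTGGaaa

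The Psma1 sequence holds CCAAT on both strands, Psmb5 holds an antioxidant element core, Psmb8 a Stat-type site and Psmb9 CCAAT on the opposite strand just before the start. Promoters were present in the sequence table for 41 proteasome genes, 25 of them 26S subunits. The antioxidant element core occurred in 4 of these 25 (16%: Psmb5, Psmb6, Psmc6 and Psmd12), against 11.5% of 27025 genes in the table, and CCAAT in 10 of 25 (40%) against 37.5%. The Stat-type site occurred in 0 of 25 against 8.13%, and the interferon element in 2 of 25 (8%: Psmb3 and Psmd4) against 3.46%. Of the 4 genes with the antioxidant core, only Psmc6 was at least 2-fold higher, where 10.4% of all measured genes were. These are matches of letters within a short window and do not show binding.

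In the outer rings of the core, the 7 measured alpha subunits had a median log2 ratio of 0.89. At least 2-fold higher were 3 of 7, where the background was 10.4%. Psma5 had a signal of 1906.9 on day 0 and 5362.2 on day 1, a 2.81-fold higher value. Psma1 went from 1030.3 to 2770.3 (2.69-fold) and Psma6 from 2110.3 to 5187 (2.46-fold). These 3 genes form the upper part of the ring, and their other probe sets were smaller in ratio: 0.89 for Psma5, 0.74 and a bound of 0.14 for Psma1, and 0.75 and -0.01 for Psma6. With probe sets averaged, Psma1 (0.77) and Psma6 (0.68) were under 2-fold and Psma5 (1.19) was not. The brightest probe set of Psma6 has the suffix _x_at, for probes that may also match other sequences. Psma7 followed with 2246 and 4165.5 (1.85-fold), and its second probe set had a larger ratio of 1.10. The remaining measured alpha genes were under 1.5-fold. Psma3 was at 4299.2 and 6395.3 (0.57), with a second, dimmer probe set at 217.7 and 118.2 (-0.88). Psma4 had the smallest ratio of the ring, 0.40, from signals of 2296.8 and 3028.9, and Psma2 had 0.48. Psma8, the alpha subunit of male germ cells, was not measured, with signals of 39.3 and 19.4.

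In the inner rings, the 7 constitutive beta subunits lay closer together and lower, with a median of 0.46 and a range of 0.12 to 0.96. At least 2-fold higher were 0 of 7, which for so few genes is near the background of 10.4%. Psmb4, which has no cutting site, had signals of 2586.7 and 5033.2 and was 1.95-fold higher; its second probe set gave 0.81 log2. The 3 cutting subunits were alike in ratio. Psmb6, with caspase-like activity, had signals of 1784.3 and 2537.8 (1.42-fold higher). Psmb5, with chymotrypsin-like activity, had 1623.9 and 2238.2 (1.38-fold), and Psmb7, with trypsin-like activity, 5355.4 and 7133.8 (1.33-fold). Psmb1 was at 1858.4 and 2725.2 (0.55), but its second measured probe set was at 189 and 61.3, a bound of -1.28. Psmb3 had a ratio of 0.43, and Psmb2 had the smallest, 0.12, from signals of 1491.6 and 1625.3.

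The inducible beta genes did not share this shift as a group. Psmb8, which replaces Psmb5, was at 306.5 on day 0 and 482.5 on day 1, 1.57-fold higher. Psmb9, which replaces Psmb6, was at 361.5 and 349.9 (log2 ratio -0.05). Psmb10, which replaces Psmb7, was at 397.1 and 397.3 (0.00073). The thymus subunit Psmb11, which was listed with these genes, was above the floor on day 0 only, with signals of 120.9 and 1.6, at least 1.56-fold lower. The median of the 4 genes was -0.02. At least 2-fold different in either direction were 0 of 4, which for so few genes is near the background of 10.4% higher and 13.3% lower. For Psmb11 this count cannot decide, because setting its day 1 signal to the floor limited its ratio to 1.56-fold. With the floor at the 25th percentile, and with no floor, Psmb11 was more than 2-fold lower, where 26% and 23% of all measured genes were at least 2-fold lower.

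The difference between an inducible gene and the subunit it replaces does not depend on a single scaling factor per array. The log2 ratio of Psmb9 was lower than that of Psmb6 by 0.56 (difference -0.56), and Psmb10 minus Psmb7 was -0.41. In contrast, Psmb8 minus Psmb5 was 0.19. So the pairs did not move alike: 2 leaned to the constitutive subunit and 1 slightly to the inducible one. Over all 10 settings tried, the differences ranged from -0.56 to -0.46, from -0.51 to -0.41 and from 0.17 to 0.30. Only quantile normalization, loess and the setting with no floor could alter them. Each gene of the pairs had 1 measured probe set, which lay above every floor tried on both arrays. None of the differences exceeds in size 0.56, the pooled SD of log2 ratios between probe sets of the same gene over 3943 genes. That SD describes disagreement between probe sets and not between mice.

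**Figure D2:**
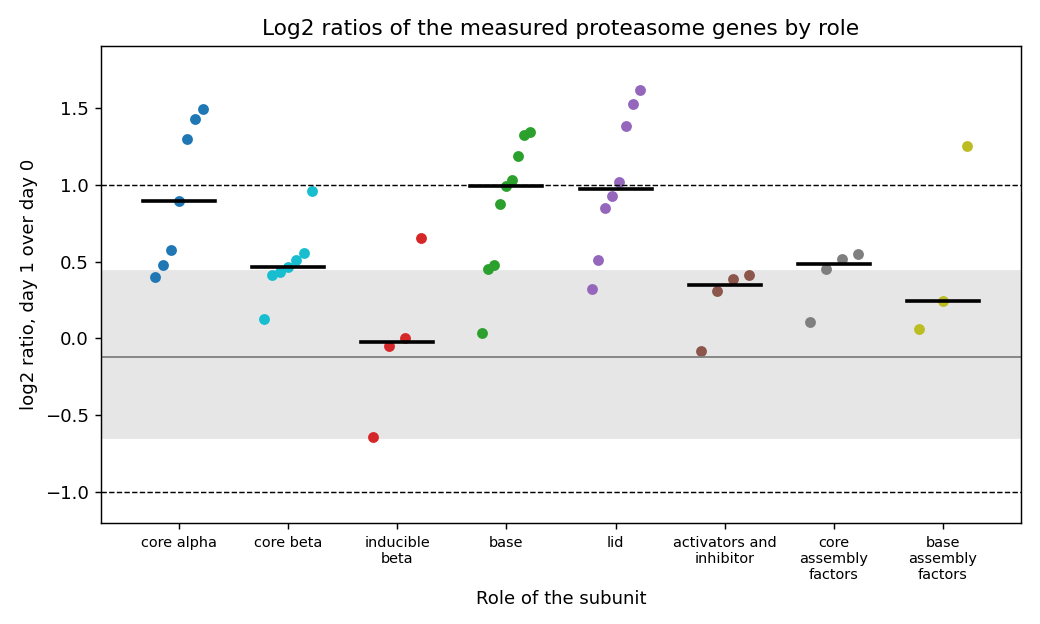
Log2 ratio of day 1 over day 0 signal for each measured proteasome gene (points) by role, with the median of each role (black bars). The grey band and line are the quartiles (-0.64 and 0.44) and the median (-0.12) of 13239 measured genes, and dashed lines mark 2-fold; the base, lid and alpha medians of 0.99, 0.97 and 0.89 lie above the band and the inducible median of -0.02 lies inside it.

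In the regulatory particle, the 9 base genes had a median log2 ratio of 0.99, with 4 of 9 at least 2-fold higher, against 10.4%. Psmd2, the large scaffold that receives ubiquitin shuttle proteins, had signals of 931.4 and 2359.3 (2.53-fold higher); its second probe set was dim, at 82.4 and 25.3, a bound of -0.08, and the average of both was 0.63 log2. Psmd1, the other large scaffold, had 1624 and 3310.2 (2.04-fold). Both scaffolds were thus among the higher genes, Psmd1 falling to 0.91 and 0.93 after quantile normalization and loess. The 6 ATPases differed among themselves more than the cutting beta subunits did, with a range of 0.04 to 1.32. Psmc1 was at 858.9 and 2142.5 (2.49-fold higher) and Psmc6 at 1035.3 and 2354.6 (2.27-fold; 0.93 log2 over its 3 probe sets). Psmc4 was at 1803.5 and 3301.2 (1.83-fold higher), Psmc2 and Psmc3 had ratios of 0.47 and 0.45, and Psmc5 was nearly level at 920.6 and 944.3. Psmd4, a ubiquitin receptor, was at 1174.3 and 2335.7 (1.99-fold higher), with other probe sets at 0.91 and -0.77, the latter from signals of 440.2 and 257.4.

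The 8 lid genes had a median of 0.97, and 4 of 8 were at least 2-fold higher, against 10.4%. The largest ratios of the whole particle were here. Psmd8 had signals of 3933.5 and 12065.1 on its only probe set, 3.07-fold higher. It was the only proteasome gene at least 3-fold higher, where 3.85% of all measured genes were. Its day 1 signal was 30.1% of the highest on that array, so it was below the top of the range. Psmd7 was at 457.9 and 1316 (2.87-fold), but over its 3 measured probe sets, of which the others were bounds of 0.60 and -0.86, the average was 0.42 log2. Psmd14, the deubiquitinating enzyme of the lid with which Psmd7 pairs, was at 1097.1 and 2850.9 (2.60-fold). Psmd11, a scaffold of the lid, was at 3012.1 and 6101.7 (2.03-fold). This call rests on a probe set shared between transcripts: the ratio was -0.13 without it, 0.36 averaged over 5 probe sets and 0.97 after quantile normalization. Psmd6 was at 1656.3 and 3142.6 (log2 ratio 0.92) and Psmd3 at 956.7 and 1722.8 (0.85), both between 1.5-fold and 2-fold higher. Under 1.5-fold were Psmd13, at 495.1 and 703.6 (0.51), and Psmd12, at 1466.3 and 1829.9 (0.32), the smallest ratio of the lid.

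Activators, the inhibitor and assembly factors are not part of the 26S particle, and 1 of these 11 genes was at least 2-fold higher, close to the background of 10.4%. Their medians were 0.35 for activators and inhibitor, 0.24 for base assembly and 0.48 for core assembly factors, the last slightly above the 0.46 of the constitutive beta ring. Psme1, an interferon-inducible activator subunit that opens the core, had signals of 1176.4 and 1534.8 (log2 ratio 0.38); its partner Psme2 shares a probe set with Psme2b and was not analysed here. Psme3, the nuclear activator, was at 589.7 and 730.2 (0.31), and Psme4, a large single-chain activator, at 3387 and 3195.9 (-0.08). Psmf1, named for its inhibition of the core, was at 487.2 and 647 (0.41), with 1.13 and a bound of 1.01 at its dimmer probe sets. The 4 chaperones of core assembly, Psmg1 to Psmg4, had ratios from 0.11 (Psmg1, 587.6 and 632.3) to 0.55 (Psmg4, 288.3 and 422.3), with Psmg2 at 0.45 and Psmg3 at 0.51. Of the 3 chaperones of the base, Psmd10 (gankyrin) was at 195.1 and 463.3, 2.37-fold higher, whereas Psmd9 (0.24) and Psmd5 (0.06, from 597.4 and 622.9) were not 1.5-fold different. Of the 2 genes with a matching symbol but no proteasome role, Psme3ip1 was at 477.9 and 788 (0.72), and Psmc3ip was at 157.4 and 189.6 (0.27) on 1 probe set and at 180.6 and 125.8 (-0.52) on the other.

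Probe sets of the same gene did not always give the same ratio. Of the 100 probe sets 80 were measured, 16 of them (from 14 genes) at least 2-fold higher, against 9.86% of all measured probe sets, and 2 at least 2-fold lower, against 12.6%. The ratios differed with brightness. Of 63 probe sets with a day 0 signal of 250 or more, 57 (90.5%) had a ratio above 0, where 45.8% of all measured probe sets that bright did. Of 17 dimmer ones 8 (47.1%) had, close to the 40.6% of all dimmer ones, so it was the bright probe sets of the proteasome genes that stood above the background. In 5 of 21 genes with several measured probe sets, Psma3, Psmb1, Psmd4, Psmd7 and Psmd13, a probe set lay at least 0.5 log2 below 0 while the brightest lay above it. The 2 lower ones were bounds, at -1.28 for Psmb1 (day 0 signal 189) and -1.03 for Psmd13 (159.1). For Psmd7 the contrary probe set had signals of 140.9 and 22. Psmd11 stands out among the rest, since its brightest probe set is by its suffix shared between transcripts, 2 others gave 0.65 and 0.71, 1 with a day 0 signal of 1294 gave -0.13, and a dim one at 106 and 59 gave a bound of -0.45. The pooled SD between probe sets of the same proteasome gene was 0.50 over 18 genes, close to the 0.56 over all genes.

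**Figure D3:**
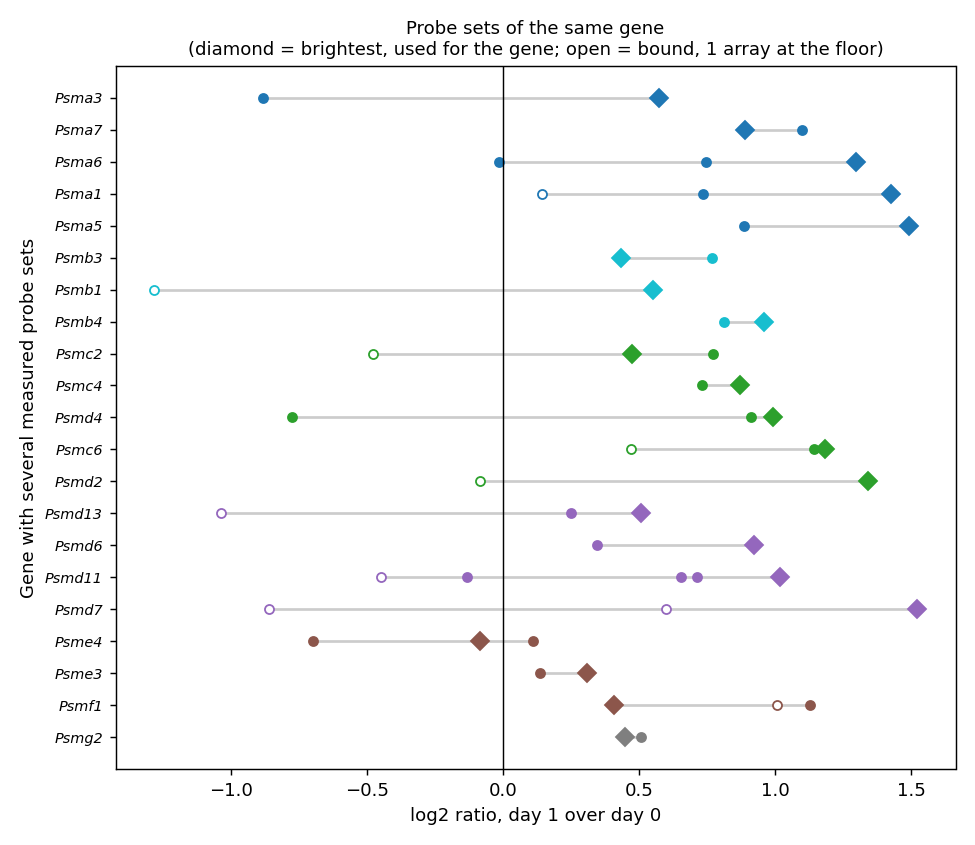
Log2 ratio of every measured probe set of the 21 proteasome genes that have several, 1 gene per row, coloured by role as in the plot of signals; diamonds are the brightest probe sets, used for the gene, and open symbols are bounds with 1 array at the floor. Most diamonds lie right of 0, and single probe sets of Psma3, Psmb1, Psmd4, Psmd7 and Psmd13 lie left of -0.5.

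Most genes that work with the proteasome were also higher. Of 24 partners listed, 4 had no probe set with a single symbol and 20 were measured, with a median of 0.71; 2-fold or more separated the days in 7 of 20, all higher on day 1, where the background was 10.4%. With probe sets averaged 3 of 20 remained, Zfand2a, Nfe2l1 and Akirin2, against 7.9%. Of these, Nfe2l1 and Akirin2 had 1 measured probe set each, so averaging could not change them. Zfand2a, a stress-induced protein that binds the cap, was at 293.3 and 3510.3, 12.0-fold higher, and its 3 measured probe sets ranged from 2.97 to 4.11 log2. Nfe2l1, the factor that drives subunit transcription when proteasome capacity falls short, was at 719.2 and 2020.5 on its only probe set, 2.81-fold higher. Its relative Nfe2l2 had a ratio of 0.61. Akirin2, which guides proteasomes into the nucleus, was at 642.2 and 1585.6 (2.47-fold higher). Usp14, a deubiquitinating enzyme on the cap, was at 672.6 and 1560.2 (2.32-fold; 0.07 at its lowest probe set and 0.61 averaged).

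3 others were past 2-fold on their brightest probe set and under it when averaged. Ubqln2, which carries ubiquitinated proteins to the proteasome, was at 853.7 and 1967.6 (2.30-fold), with a contrary probe set at -0.72 and an average of 0.24. Zfand5, which stimulates the proteasome, was at 2992.9 and 6420.6 (2.15-fold; 0.91 averaged). Txnl1, a thioredoxin bound to the cap, was at 2033.5 and 4205.4 (2.07-fold; 0.70 averaged). Vcp, the ATPase that extracts ubiquitinated proteins, and its adaptor Nploc4 were just under, at 0.96 and 0.97. Pomp, the maturation factor of the core, had 0.62, and Sem1, the smallest lid subunit, 0.71, close to the core and lid genes with which they assemble. In contrast, the deubiquitinating enzyme Uchl5 had a ratio of -0.51, the peptide-N-glycanase Ngly1, which processes Nfe2l1, -0.18 and the proteasome adaptor Ecpas -0.31, with probe sets from -1.06 to 0.77. Of the 6 genes of ubiquitin and its activating enzymes, only Uba6 had a probe set with a single symbol (0.56).

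Among other multi-subunit complexes, the lid's structural relatives did not show the same shift. The 9 measured genes of the COP9 signalosome ranged from -0.56 to 0.85 around a median of -0.07. Of these, 0 of 9 differed by 2-fold or more, where the background was 10.4% higher and 13.3% lower. Its largest were Cops5, at 920.1 and 1663.5, and Cops4, at 368.5 and 611.3. The 11 measured genes of the translation factor eIF3 had a median of 0.18 and a range of -0.60 (Eif3b, 1757.7 and 1155.7) to 0.44; Eif3i followed Eif3b at -0.50, from 7860.5 and 5562.1. The CCT chaperonin, which folds actin and tubulin, was closer, with a median of 0.47 and a range of -0.02 to 1.25. At least 2-fold higher were 2 of 8 genes, where the background was 10.4%. Those were Cct8, at 578.3 and 1377.4 (2.38-fold), and Cct3, at 2338.9 and 5286.5 (2.26-fold), whose 6 probe sets ran from -1.05 to 2.81. Whether the proteasome differs from any of these cannot be tested with 1 array per day.

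**Figure D4:**
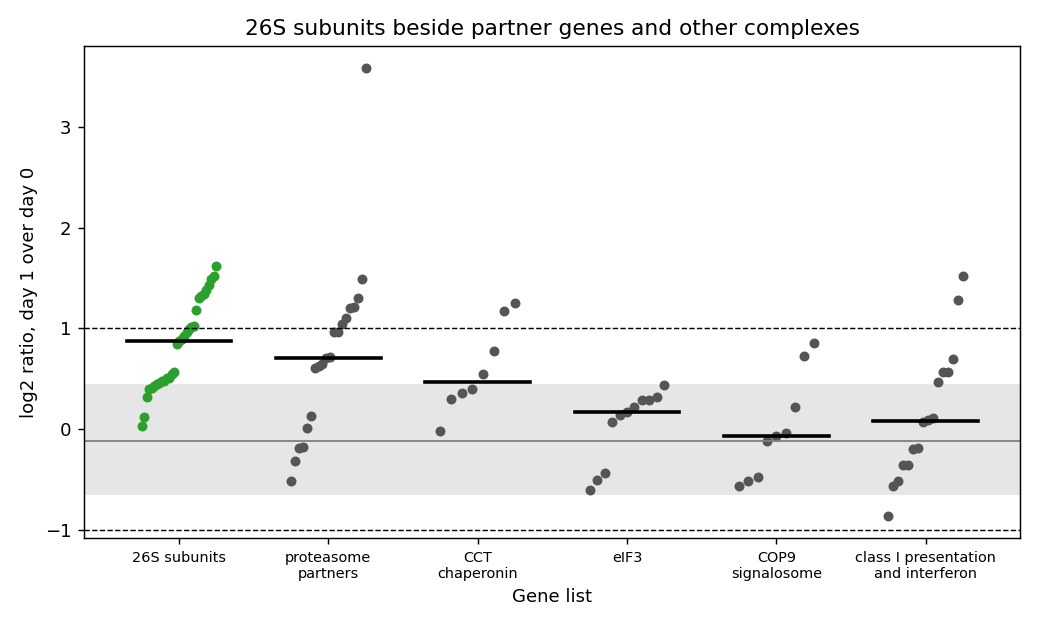
Log2 ratio of day 1 over day 0 for the 31 measured 26S subunits (green) beside partner genes, 3 other complexes and genes of class I presentation and interferon response (grey points; black bars are medians; grey band, line and dashes as in the plot by role). The medians are 0.87, 0.71, 0.47, 0.18, -0.07 and 0.08 from left to right, and the point above 3 is Zfand2a.

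Genes that work with the immunoproteasome in antigen presentation were, like Psmb9 and Psmb10, near the background. Of 20 listed genes of class I presentation and interferon response 16 were measured, with a median of 0.08. A 2-fold higher signal was reached by 2 of 16, near the 10.4% of all measured genes. A 2-fold lower one was reached by 0, against 13.3%. Rtp4 was at 243.8 and 701.1 (2.88-fold) and Gbp2 at 256.4 and 624.9 (2.44-fold), both interferon-induced genes. Tap1, a peptide transporter gene next to Psmb9, was at 162.8 and 225.8 (0.47) with a second probe set at -0.37. B2m, the class I light chain, had a ratio of -0.57 and Irf1, an inducer of the immunoproteasome genes, -0.19. Leukocyte markers, read because these cells are rich in immunoproteasome, were in part higher on day 1. Of 12 macrophage markers 11 were measured, 5 at least 2-fold higher and 1 lower, where the background was 10.4% and 13.3%. Their summed signal was 11019.3 on day 0 and 38466.3 on day 1, of which Cd14 made up 3816.8 and 29010.6. The other 10 summed to 7202.5 and 9455.7, 1.31-fold higher. Ratios above 0 were seen in 9 of the 11, while C1qa was 2.35-fold and Adgre1 1.77-fold lower. Of 12 lymphocyte markers 10 were measured, 6 at least 2-fold higher and 1 lower, 5 were at the floor on day 0, and the summed signal was 9293.9 and 10778.7. Jchain made up 8269.1 and 8404.1 of it, and the other 9 summed to 1024.8 and 2374.6, 2.32-fold higher. The median log2 ratio of the lymphocyte markers was 1.12, but 0.03 over 5 measured genes with the floor at the 75th percentile. The part of leukocytes in the proteasome ratios was not tested. In whole tissue a change in the number of cells of a type and a change in RNA per cell cannot be told apart.

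The label of the tissue was borne out by its markers: the milk protein genes Csn1s1, Csn1s2a, Csn2, Csn3, Wap and Lalba had signals of at least 76344.1 on day 0 and at least 31909 on day 1. Of the 10 secretory epithelium markers 7 were at least 2-fold lower on day 1, against 13.3% of all measured genes. The 6 milk protein genes were lower by 2.28-fold to 2.54-fold and Elf5, a factor of alveolar differentiation, by 2.11-fold. The 6 milk protein signals lay near the top of both arrays. The highest signals were 108570.5 on day 0 and 40090.2 on day 1, the latter being Csn3. Whether the range of the arrays limited their ratios was not tested. The keratins Krt8 and Krt18 were 7.53-fold and 6.31-fold higher and the epithelial adhesion gene Epcam 1.22-fold higher. The whole glands also gave signal for markers of other tissue. The 5 measured adipocyte markers summed to 18897.7 on day 0 and 20346.4 on day 1, with a median log2 ratio of -0.10. The 7 skeletal muscle markers summed to 18288.6 and 19334, with a median of 0.35. The arrays themselves differed. Each had been scaled to a trimmed mean of 250, but 15 hybridisation control probe sets had a median log2 ratio of -1.16, and for beta-actin the signal at the 3′ end exceeded that at the 5′ end by 2.50-fold (day 0) and 1.51-fold (day 1), for Gapdh by 1.52-fold and 1.48-fold and for pyruvate carboxylase by 13.5-fold and 7.86-fold. The part of these differences, of fat and muscle in the tissue and of the shift in epithelial markers, in the proteasome ratios was not tested.

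The level of the proteasome genes depended on the scaling of the arrays. Dividing each array by its median raised the median of all measured genes from -0.12 to 0.49, and scaling on the hybridisation controls raised it to 0.97; the 26S median rose with them to 1.52 and 2.04. After quantile normalization it was 0.76 and after loess 0.78, with all genes at -0.02 and -0.0039. Relative to the median of all genes, the 26S subunits were higher by 0.99 as deposited and by 0.65 to 1.09 under the 9 alternatives. In all 10 settings the medians of the alpha ring, base and lid were each above that of the constitutive beta ring. The beta ring was above all genes in each, and the inducible list, which includes Psmb11, was the lowest of the 8 roles. With the floor at the 75th percentile Psmb11 was not measured and the inducible median was 0.00073. Median centring and hybridisation control scaling shift the medians of the roles by 1 constant each and could not alter the order. The gap to the beta ring narrowed with probe sets averaged. It fell from 0.43 to 0.21 for the alpha ring and from 0.53 to 0.17 for the base. For the lid it fell from 0.51 to 0.07. For the alpha ring it was also 0.27 with the floor at the 25th percentile and 0.28 without _s_at and _x_at probe sets. Averaging could change only genes with several measured probe sets, in the beta ring Psmb1, Psmb3 and Psmb4.

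**Figure D5:**
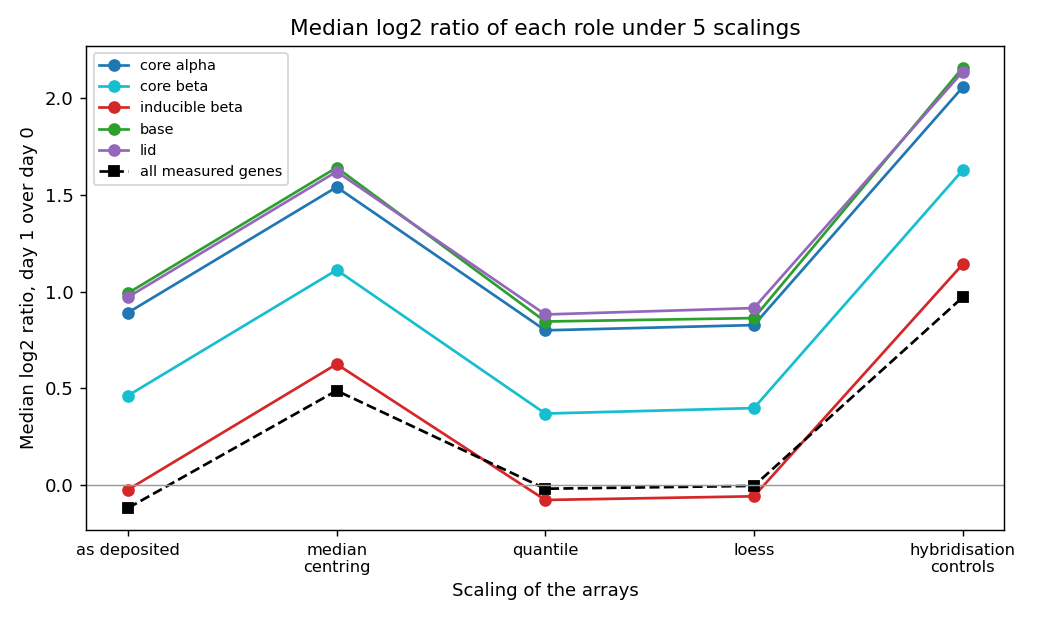
Median log2 ratio of 5 proteasome roles (coloured lines) and of all measured genes (dashed black line) under 5 scalings of the 2 arrays. The lines move up and down together: the base goes from 0.99 as deposited to 2.15 under hybridisation control scaling and all genes from -0.12 to 0.97. Median centring and control scaling add 1 constant to the roles, so only quantile and loess could have changed their order.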

How the data were processed

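Per the labels, the authors made the deposited intensities, linear MAS 5 signals, with Affymetrix Microarray Suite 5.0. The target was not given in the sources used here. Both arrays had a trimmed mean of 250 (2% at each end). RefSeq symbols (GRCm38.p6), matched by gene identifier, replaced older ones and changed 0 of the members. Probe sets naming more than 1 gene were not used. Signals were floored at 77.7 and the log2 ratio taken between days; called means at least 2-fold, since 1 array per day allows no test, SD or p-value. The number of arrays limits the precision. Counting was tested on simulated data, with changes larger than 2-fold in bright genes and less noise than the spread between probe sets. That test does not show how reliable the 2-fold counts are here. The members and all gene lists were chosen with earlier results of these data known. Full values were given for members at least 1.5-fold different, the extremes of each role, the exchange pairs and genes with disagreeing probe sets, and for genes of other lists at least 2-fold different or largest in absolute ratio; other members are named with their ratio. Alternatives were 4 scalings (each gene keeping its probe set), 2 other floors, a pseudocount of 16 and averaging probe sets. Others were leaving out probe sets with the suffix _s_at or _x_at, and thresholds of 1.5-fold and 3-fold. The suffix _s_at marks probe sets shared between transcripts, and _x_at those whose probes may also match other sequences. Psma6 and Psmc2 are each given by an _x_at probe set. Python 3.11.15, pandas 2.3.3 and statsmodels 0.14.6 were used.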

Additional observations from a re-analysis of the deposited data

How the results depend on the processing

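Values were said to move when they differed by more than 0.56 log2, the spread between probe sets of the same gene, or a count by more than 1.5 times. Median centring and hybridisation control scaling raised the median of the 46 proteasome genes from 0.51 to 1.16 and 1.67. Under these 2 scalings the medians by role were 1.54 and 2.05 for the alpha ring, 1.11 and 1.63 for the beta ring, 0.63 and 1.14 for the inducible genes, 1.64 and 2.15 for the base, 1.62 and 2.13 for the lid, 0.99 and 1.51 for activators and inhibitor, 1.13 and 1.64 for core assembly and 0.89 and 1.40 for base assembly factors. The count of genes at least 2-fold higher, 12 as deposited, was 35 and 45 under the same scalings, where 28% and 48.7% of all genes were called, and 6 with probe sets averaged; it was 19 at 1.5-fold and 1 at 3-fold. The count lower, 0 as deposited, was 1 with a floor at the 25th percentile, with no floor and at 1.5-fold, in each case Psmb11. Of all measured genes 26%, 23% and 27.2% were that much lower in these settings, against 13.3% as deposited. By this limit the role medians and the differences of the 3 exchange pairs did not move in the other settings. Of those settings, only quantile normalization, loess and no floor could alter the pair differences. The limit comes from single probe sets and not from medians of several genes. With probe sets averaged, the base fell from 0.99 to 0.63, the lid from 0.97 to 0.53 and the alpha ring from 0.89 to 0.68. The median of all 26S subunits fell from 0.87 to 0.51, while the beta ring stayed at 0.46. In the beta ring Psmb2, Psmb5, Psmb6 and Psmb7 had 1 measured probe set each, which averaging could not change. The same held for Psmd3, Psmd8, Psmd12 and Psmd14 of the lid and Psmc1, Psmc3, Psmc5 and Psmd1 of the base. In the alpha ring it held for Psma2 and Psma4. Psmd11 changed sign, to -0.13, without its shared probe set. Of the genes at least 2-fold higher, Psma1, Psma6, Psmc6, Psmd2, Psmd7 and Psmd11 fell under 2-fold with probe sets averaged. Psma6 and Psmd11 did so without _s_at and _x_at probe sets, and Psmd1 and Psmd11 after quantile normalization. Psmd1 did so after loess, and Psmd10 with a floor at the 75th percentile. The causes were not tested. No paired analysis was possible because each day has 1 array of pooled RNA. Dim probe sets limit Psmb11, Psmd9 and Psmd10.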
